A study of Mus musculus with 109 samples.

Results

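Zic1, Zic2, Zic4, Zic5 and Barhl1, transcription factor genes of the cerebellar granule cell lineage, were examined cell by cell in granule cell progenitor (GCP) preparations. The 5 genes were taken by symbol from the raw count table, which lists 15973 genes in 109 cells. The cells came from C57BL/6 mice at postnatal day 7 (P7) and were enriched from cerebella on a Percoll density gradient, with no other treatment or genotype. Each cell was captured on a C1 Fluidigm chip and gave its own library. The labels divide the libraries into 6 library groups of 18 or 19 cells, numbered here from 1 to 6, but do not name the animals, and p-values below therefore measure only the spread between library groups, which may be technical. Cells were compared by Mki67, a marker of cycling cells, and by Dcx, the microtubule-associated protein of young migrating neurons. Levels are given as counts per 1000000 counts of the cell (CPM). Mki67-high cells had at least 100 CPM of Mki67 (32 cells) and Mki67-low cells had under 10 CPM (75 cells). The highest Mki67-low cell was at 9.27 CPM, the lowest Mki67-high cell was at 132 CPM, and 2 cells of library group 2 lay between, at 21.3 and 66.4 CPM. Dcx-high cells had at least 1000 CPM of Dcx (54 cells), Dcx-low cells had under 100 CPM (26 cells), and 29 cells lay between.

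Zic proteins are zinc-finger transcription factors related to the Gli proteins, the effectors of Sonic hedgehog (Shh) signaling, which drives GCPs to divide in the external granular layer. Zic1 and Zic4 are neighbouring genes whose joint loss in humans is linked to Dandy-Walker malformation of the cerebellum, and Zic2 and Zic5 form another such pair. Barhl1 is a homeodomain factor of granule cells and their progenitors, and is known as a target of Atoh1, the basic helix-loop-helix (bHLH) factor that specifies GCPs.

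In the GENCODE annotation of mouse genome GRCm38 (mm10), Zic1 lies at chr9:91358058-91365810 on the minus strand and Zic4 at chr9:91362413-91389348 on the plus strand. The pair is arranged head to head and overlaps over 3398 bases, of which 60 are exonic in both genes. Whether counting used the strand was not given in the sources used here, so reads from those 60 bases cannot be assigned to either gene. Zic5 lies at chr14:122456795-122465677 on the minus strand and Zic2 at chr14:122475435-122479852 on the plus strand, with outer starts 9758 bases apart. Barhl1 lies at chr2:28907679-28916668 on the minus strand.

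To place the genes beside the bHLH factors described below, the region from 250 to 51 bases before the RefSeq start of Zic1, of Zic5 and of Barhl1 (its first listed start) is shown on the gene's strand, 5′ to 3′ (RefSeq, GRCm38.p6). Capitals mark E-boxes, CANNTG, the motif that bHLH factors read, which has the same letters on both strands. The positions are chr9:91365819-91366018 for Zic1, chr14:122465709-122465908 for Zic5 and chr2:28916719-28916918 for Barhl1, and none of these bases is exonic in GENCODE.
Zic1: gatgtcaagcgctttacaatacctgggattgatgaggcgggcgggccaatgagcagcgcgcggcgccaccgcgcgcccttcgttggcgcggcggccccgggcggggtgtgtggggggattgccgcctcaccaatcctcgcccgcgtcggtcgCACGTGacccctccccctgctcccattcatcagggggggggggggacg
Zic5: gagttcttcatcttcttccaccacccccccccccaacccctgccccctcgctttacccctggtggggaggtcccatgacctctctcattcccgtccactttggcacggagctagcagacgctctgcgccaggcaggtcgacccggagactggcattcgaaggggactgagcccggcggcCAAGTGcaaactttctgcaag
Barhl1: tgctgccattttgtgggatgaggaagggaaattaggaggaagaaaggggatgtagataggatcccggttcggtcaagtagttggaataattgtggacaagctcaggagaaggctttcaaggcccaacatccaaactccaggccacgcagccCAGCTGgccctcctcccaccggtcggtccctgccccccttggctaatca
The Zic1 region was 71.5% G or C with 24 CpG sites, the Zic5 region 63% with 10 and the Barhl1 region 55% with 5, beside medians of 51.5% and 4 sites over 32544 RefSeq regions of that length. Each of the 3 regions held 1 E-box. The same stretch before the RefSeq start of Zic4 (43.5% G or C, 2 CpG sites, all 200 bases exonic in GENCODE) and before a second listed start of Barhl1 (61%, 12 CpG sites) held 0 E-boxes. Of all such regions, 59% held an E-box, and 10.3% held CAGCTG, the form present before Barhl1. The form before Zic1 was CACGTG and that before Zic5 was CAAGTG, and neither was counted over all regions. CAGATG or its reverse CATCTG was present in 12% of all regions and in 0 of the regions examined here. Whether any bHLH factor binds the marked E-boxes was not tested. None of these 5 regions, which include both listed starts of Barhl1, held CCACCCA or its reverse TGGGTGG. That core is read by Gli factors, and 6.5% of all regions held it. The regions used here included none for Zic2, so Zic2 was not examined for either motif.

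Total counts per cell ran from 15071 to 8616017 with a median of 3604792, and the next lowest total was 1110182. In the cell with 15071 counts, which had a Mki67 level between the classes, 1 count equals 66.4 CPM. The labels call all cells granule precursor cells. Neurod1, a bHLH factor of differentiating granule cells, reached 10 CPM in 105 of 109 cells and Pax6, a paired-box factor of the granule lineage, in 85, but Atoh1 did so in 11. Of the gene lists for other cell types, microglia (6 of 7 genes listed in the table) had a median summed level of 0 CPM in Mki67-high and in Mki67-low cells, with maxima of 864 and 79 CPM, and vascular and meningeal genes (8 of 12 listed) had medians of 0.0938 and 0 CPM. Unipolar brush and nuclear neuron genes (3 of 5 listed) had medians of 4.01 and 0.702 CPM, but maxima of 3919 and 2871 CPM. The astroglial, oligodendrocyte, and GABAergic and Purkinje lists are given beside the results they moved with. At least 3 of 12 astroglial genes reached 50 CPM in 11 cells, 5 of the Mki67-high and 6 of the Mki67-low cells, and 3 cells were of unusual depth (under 1000000 counts or over 10000 genes detected). All cells were kept, and results that were retested without these cells are marked where they change.

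Zic1 was the most widely and most strongly expressed of the 5 genes, and Barhl1 the least widely expressed. At least 1 count of Zic1 was found in 108 of 109 cells, of Zic5 in 104, of Zic4 in 98, of Zic2 in 88 and of Barhl1 in 69. Many of these were traces: between 1 and 5 counts were found in 31 cells for Zic4, 25 for Zic2, 24 for Barhl1, 18 for Zic5 and 5 for Zic1. Levels of at least 10 CPM, taken here as clear expression, were reached by Zic1 in 97 cells (89%, Wilson 95% interval 81.7 to 93.6%), by Zic5 in 78 (71.6%, 62.5 to 79.2%), by Zic4 in 58 (53.2%, 43.9 to 62.3%), by Zic2 in 46 (42.2%, 33.4 to 51.6%) and by Barhl1 in 34 (31.2%, 23.3 to 40.4%). These intervals cover counting error only. The order of the 5 genes was thus the same for any count and for clear expression.

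Zic1 ranged from 0 to 7804 CPM over the cells, with a median of 283 CPM. Zic5 ranged from 0 to 3184 CPM, with a median of 162 CPM. Zic4 reached 5504 CPM around a median of 12.8 CPM, so most of its RNA was held by few cells. Zic2 had a median of 4.69 and a maximum of 559 CPM, and Barhl1 a median of 0.518 and a maximum of 667 CPM. The 11 highest cells held 45.3% of the summed CPM of Zic5, 54.3% for Zic1, 59.5% for Zic2, 68% for Zic4 and 69.1% for Barhl1. For the 8642 genes detected in 20 cells or more, the median share held by the 11 highest cells was 92.9%, so all 5 genes were spread over more cells than most genes of the table.

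Scaled per kilobase of exon and then to a sum of 1000000 over the 14590 genes with a GENCODE length, the mean level over library groups was 619 ± 415 for Zic1, 320 ± 130 for Zic5, 141 ± 46.7 for Zic4, 65.2 ± 51.2 for Barhl1 and 57.3 ± 38.2 for Zic2 (SD, n = 6 library groups). On this per-length scale, the mean ± SD ranges of Zic1 and Zic5 overlapped, as did those of Zic4, Barhl1 and Zic2 with each other. Zic1 was the highest of the 4 Zic genes, by CPM, in 55 cells, Zic5 in 26, Zic4 in 23 and Zic2 in 5. Of the 5 genes, Barhl1 had the largest ratio between library group means: it averaged 130 CPM in group 1, 101 in group 2 and between 18.5 and 44.6 CPM in the other 4.

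Of the 5 genes, Zic5 had a higher share of cells at 10 CPM or more in the Mki67-high, cycling cells of every library group. Its mean log level was also higher in every group, but its summed counts were not. At least 10 CPM of Zic5 was present in 29 of 32 Mki67-high cells (90.6%, Wilson 95% interval 75.8 to 96.8%) and in 47 of 75 Mki67-low cells (62.7%, 51.4 to 72.7%). In library groups 1 to 6, the Mki67-high cells reached this level in 3 of 4, 4 of 4, 7 of 8, 3 of 3, 8 of 8 and 4 of 5 cells. The Mki67-low cells did so in 7 of 15, 8 of 12, 7 of 10, 11 of 15, 7 of 10 and 7 of 13 cells. Mki67-high cells thus had the higher share in 6 of 6 library groups. The mean gap was 27 ± 5.33 percentage points (SD, n = 6), and a two-sided exact sign-flip test over the groups gave p = 0.03125, the lowest value that 6 groups can give. In the same sign-flip test at this limit, the other 4 genes had p of 0.34375 or more. Checks of Zic5 at this limit were added after values were seen. Over 11115 genes, 4.84% had a higher share in all 6 library groups, and the median difference in share was 5.15 points, beside a median of 4968 genes detected per Mki67-high cell and 4193 per Mki67-low cell. Whether the number of detected genes had a part in the difference was not tested.

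The mean of log2(CPM + 1) of Zic5 was also higher in Mki67-high cells in 6 of 6 library groups. The differences in groups 1 to 6 were 1.53, 0.94, 1.75, 1.33, 2.24 and 0.30 on the log2(CPM + 1) scale. The mean level was 6.94 ± 1.24 in Mki67-high and 5.59 ± 0.79 in Mki67-low cells, a difference of 1.35 ± 0.67 (SD, n = 6, exact sign-flip p = 0.03125). Over all 11115 genes, 6.86% were higher in all 6 groups, and the median difference was 0.32. Of the 5 members, 1 was higher in all 6. With limma across those genes, the adjusted p of Zic5 was 0.374, so the difference was not called. The 12 astroglial genes had a median summed level of 456 CPM in Mki67-high and 209 CPM in Mki67-low cells. In the sums, the median log2 fold change of the 10 tested astroglial genes was −0.22, beside −0.18 over all genes. S100b (−2.76) and Aldoc (−1.37) were lower in Mki67-high sums, and Apoe (1.76) and Gfap (1.09) higher. The 11 measured GABAergic interneuron and Purkinje genes ran from 2.34 to 3689 CPM around a median of 622 CPM in Mki67-high cells, and from 0 to 10078 around 142 CPM in Mki67-low cells, although 10 of the 11 had a median of 0 in each class. Among them, Gad1, which makes the transmitter GABA, averaged 3.11 CPM in Mki67-high and 239 CPM in Mki67-low sums and was higher in Mki67-high cells in 0 of 6 groups. Pax2 went the same way (0.411 and 42.8 CPM), but Foxp2 averaged 127 and 0.752 CPM and was higher in 5 of 6 groups. The median log2 fold change of the 5 tested genes of this list was 1.15. The 8 oligodendrocyte genes had medians of 58.9 and 6.31 CPM, with 6 of 8 at a median of 0 in each class. The median log2 fold change of the 6 tested oligodendrocyte genes was 0.41, from −3.22 for Olig2 to 2.23 for Pdgfra. The part of these cell types in the Zic5 difference was not tested beyond leaving out the astroglial cells. Without the 11 cells carrying astroglial genes, Zic5 was higher in 5 of 6 groups on this scale (1.51, exact sign-flip p = 0.125), while the share at 10 CPM or more stayed higher in 6 of 6 (27.7 points, exact sign-flip p = 0.03125). With 10 in place of 1 as the pseudocount, the mean was higher in 5 of 6 groups (0.79, exact sign-flip p = 0.0625).

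The difference in Zic5 lay at the low end of its range. Any count of Zic5 was found in 32 of 32 Mki67-high cells and in 70 of 75 Mki67-low cells. That share was higher in Mki67-high cells in 4 of 6 groups and lower in 0 (exact sign-flip p = 0.125). Among cells with clear expression, the median was 265 CPM in Mki67-high and 373 CPM in Mki67-low cells, the opposite order. When every cell was thinned to 1000000 counts, a count remained in 90.6% of Mki67-high and 84% of Mki67-low cells, higher in 5 of 6 groups by 6.31 points (exact sign-flip p = 0.09375). When the counts of all cells of a class were added up within a library group, Zic5 was higher in the Mki67-high sum in 3 of 6 groups, at 345 ± 215 against 295 ± 98.8 CPM (SD, n = 6).

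**Figure D1:**
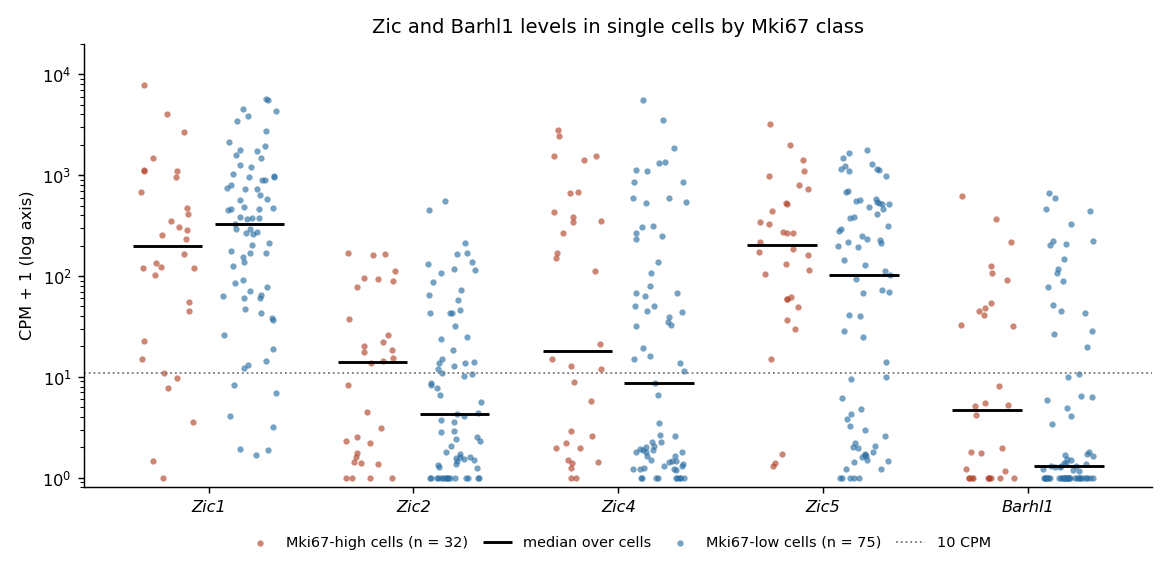
Level of each gene in each Mki67-high cell (red, n = 32) and Mki67-low cell (blue, n = 75), as CPM + 1 on a log axis, with the median over cells as a black line and 10 CPM dotted. For Zic5, 3 Mki67-high cells lie below the dotted line, against 28 Mki67-low cells.

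In the sums, none of the 5 genes was called between the Mki67 classes. With edgeR, 2 of 9083 genes passed an adjusted p of 0.01 (0.0220%), both of them higher in Mki67-high sums (the mitotic genes Tacc3 and Cdc20), 665 genes had an unadjusted p under 0.05, and no member was called. With the library group as a replicate block in the same edgeR fit, 0 genes were called (lowest adjusted p = 0.0191), and the calls of Tacc3 and Cdc20 were lost. The log2 fold change was −0.09 for Zic1 (SE 0.70, edgeR adjusted p = 0.993), −0.17 for Zic2 (SE 1.19, adjusted p = 0.991), 0.88 for Zic4 (SE 0.64, adjusted p = 0.793), 0.09 for Zic5 (SE 0.59, adjusted p = 0.990) and 0.53 for Barhl1 (SE 1.42, adjusted p = 0.956). The standard errors, of 0.59 or more, were derived from each fold change and its F statistic. They leave room for 2-fold changes in each of the 5 genes, and for much larger ones in Zic2 and Barhl1. A 2-fold difference is therefore not excluded for any of them, and the power to detect one was not computed. The median over all genes was −0.18 with TMM normalization and 0.09 with DESeq2 size factors, and the signs for Zic1 and Zic2 turned with that choice. DESeq2 on the same sums called 376 genes and no member.

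Zic1 had no common direction between the Mki67 classes. In the sums it stood at 717, 57.9, 298, 1842, 1557 and 332 CPM in Mki67-high cells of groups 1 to 6 and at 443, 409, 956, 1601, 1064 and 650 CPM in Mki67-low cells. It was higher in 3 groups and lower in 3, and the ranges overlapped. The mean of log2(CPM + 1) differed by −0.60 ± 1.58 (SD, n = 6, exact sign-flip p = 0.375). Clear expression was found in 27 of 32 Mki67-high and 68 of 75 Mki67-low cells.

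Zic4 was higher in the Mki67-high sum in 4 of 6 library groups. It stood at 606, 652, 110, 741, 445 and 524 CPM in Mki67-high sums and at 170, 183, 336, 169, 611 and 136 CPM in Mki67-low sums of groups 1 to 6. The groups overlapped, since groups 3 and 5 had the reverse order. The log2 fold change of 0.88 became 1.41 without group 5 and 0.66 without group 4. The difference in mean log2(CPM + 1) was 1.40 ± 2.52 and positive in 3 of 6 groups (SD, n = 6, exact sign-flip p = 0.25). Clear expression was found in 19 of 32 Mki67-high cells (59.4%) and 37 of 75 Mki67-low cells (49.3%).

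Zic2 and Barhl1 were low in both classes. Zic2 averaged 32.9 ± 17.5 CPM in Mki67-high and 33.9 ± 26.4 CPM in Mki67-low sums (SD, n = 6), with clear expression in 17 of 32 and 28 of 75 cells. Barhl1 averaged 72.5 ± 127 and 58.8 ± 37.0 CPM, with clear expression in 12 of 32 and 20 of 75 cells. Barhl1 ranged from 0 CPM in the 3 Mki67-high cells of group 4 to 331 CPM in the 4 of group 1, and group 1 alone carried most of its Mki67-high mean. The mean log2(CPM + 1) of Zic2 differed by 0.33 ± 1.29 (exact sign-flip p = 0.59375, n = 6) and that of Barhl1 by 0.81 ± 2.30 (exact sign-flip p = 0.40625, n = 6), both with 4 groups higher and 2 lower.

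**Figure D2:**
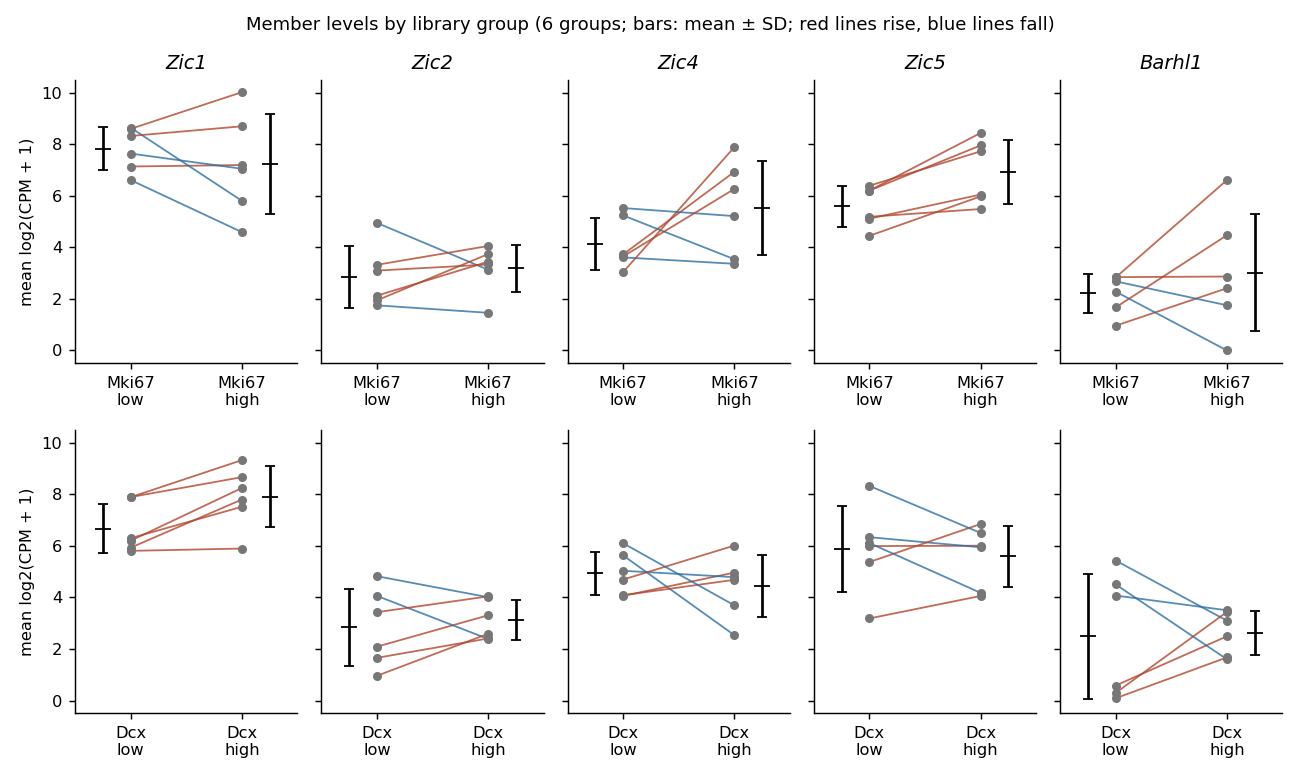
Mean log2(CPM + 1) of each gene in the low and high class of each of the 6 library groups, for the Mki67 classes (top row) and the Dcx classes (bottom row), with a line per library group and the mean ± SD beside the points. All 6 lines rise for Zic5 between the Mki67 classes and for Zic1 between the Dcx classes, and the other 8 panels hold lines of both directions.

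Of the 5 genes, Zic1 was higher in the Dcx-high cells of every library group. In the sums of groups 1 to 6, Zic1 stood at 142, 63.0, 616, 1293, 458 and 279 CPM in Dcx-low cells and at 591, 198, 670, 1693, 1406 and 650 CPM in Dcx-high cells. It was higher in the Dcx-high sum of every library group, although the ranges overlapped, since group 4 was highest and group 2 lowest in both classes. The mean over groups was 868 ± 562 CPM in Dcx-high and 475 ± 449 CPM in Dcx-low sums (SD, n = 6). The edgeR log2 fold change was 0.80 (SE 0.75, adjusted p = 0.920). In this comparison 0 of 7578 genes were called in edgeR (0%), 426 had an unadjusted p under 0.05, and DESeq2 on the same sums called 434 genes and no member.

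The mean log2(CPM + 1) of Zic1 was higher in Dcx-high cells in 6 of 6 library groups, by 1.87, 0.09, 2.04, 1.44, 0.77 and 1.22 in groups 1 to 6. It was 7.91 ± 1.18 in Dcx-high and 6.67 ± 0.96 in Dcx-low cells, a difference of 1.24 ± 0.72 (SD, n = 6, exact sign-flip p = 0.03125, the smallest possible). Over 11115 genes, 2.66% were higher in all 6 groups and the median difference was −0.03. Of the 5 members, again 1 was higher in all 6. The limma adjusted p was 0.744. The share of cells at 10 CPM or more, which 0.936% of genes had higher in all 6 groups, was higher for Zic1 in 5 groups and lower in 1 (50 of 54 against 21 of 26 cells), and no member had it higher in all 6.

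The Zic1 difference with Dcx held in fewer library groups in other sets of cells. Without the cells carrying astroglial genes it was 0.57 and positive in 5 of 6 groups (exact sign-flip p = 0.28125). Clear expression of Zic1 was found in 7 of those 11 cells and in 90 of the other 98. Within Mki67-low cells alone it was 1.33, positive in 4 of 6 groups (exact sign-flip p = 0.15625), and between cells above and below the median Dcx level it was 0.48, positive in 5 of 6 (exact sign-flip p = 0.3125). In the sums, the log2 fold change was 0.40 without the astroglial cells, 0.086 within Mki67-low cells (SE 1.02) and 0.27 between cells above and below the median of Dcx, beside 0.80 in all cells. Astroglial genes had a median summed level of 545 CPM in Dcx-low and 198 CPM in Dcx-high cells, with 9 of 12 at a median of 0 in each class. The median log2 fold change of the 8 tested astroglial genes was −1.55. Fabp7 and S100b were lower in Dcx-high sums (−3.14 and −2.19). Apoe (6.60, higher in all 6 groups) and Aqp4 (2.91, higher in 3) went the other way. GABAergic and Purkinje genes had medians of 450 and 226 CPM, but Gad1 averaged 0.534 CPM in Dcx-low and 262 CPM in Dcx-high sums and was higher in Dcx-high cells in all 6 groups. Foxp2, Lhx5 and Lhx1 of the same list went the other way (log2 fold changes −3.15, −1.19 and −0.70). The median of its 4 tested genes was −0.95. Oligodendrocyte genes had medians of 5.80 CPM in Dcx-low and 5.32 CPM in Dcx-high cells, with 6 of 8 at a median of 0 in each class. In the sums, the median log2 fold change of the 4 tested oligodendrocyte genes was −2.12. Sox10 averaged 200 CPM in Dcx-low and 4.84 CPM in Dcx-high sums, and Pdgfra 598 and 202 CPM, but Mbp went the other way (0.16). The part of GABAergic and oligodendrocyte lineage cells in the Zic1 difference was not tested.

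None of the other 4 genes had the same direction with Dcx in all 6 library groups. In the sums, Zic4 averaged 249 ± 171 CPM in Dcx-high and 397 ± 276 CPM in Dcx-low cells (SD, n = 6, edgeR log2 fold change −0.81, SE 0.85, adjusted p = 0.928). Zic5 averaged 335 ± 136 and 225 ± 137 CPM (0.47, SE 0.80, adjusted p = 0.961 in edgeR), and Zic2 40.4 ± 28.0 and 24.1 ± 17.5 CPM (0.63, SE 1.37, adjusted p = 0.973 in edgeR). Barhl1 averaged 74.5 ± 47.5 and 85.5 ± 115 CPM (−0.31, SE 1.61, adjusted p = 0.993 in edgeR). Barhl1 split the library groups: its Dcx-low sums stood at 190, 266 and 56.5 CPM in groups 1, 2 and 6 but at 0.082, 0.377 and 0.68 CPM in groups 3, 4 and 5, while its Dcx-high sums stayed between 18.6 and 135 CPM in all 6. Any count of Barhl1 was found in 36 of 54 Dcx-high and 12 of 26 Dcx-low cells.

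Both markers together gave 4 states, described here without a test: 13 Mki67-high cells with Dcx under 100 CPM, 19 Mki67-high cells with Dcx at 100 CPM or more, 62 Mki67-low cells with Dcx at 100 CPM or more and 13 Mki67-low cells with Dcx under 100 CPM. In the Mki67-high cells with Dcx, Zic5 was clearly expressed in 19 of 19, beside 38 of 62 Mki67-low cells with Dcx. In the Dcx-poor states it was so in 10 of 13 Mki67-high and 9 of 13 Mki67-low cells. The 19 Mki67-high cells with Dcx came from 5 of the 6 library groups, without group 4. They included the 2 Mki67-high cells of unusual depth, with 13533 and 12684 genes detected, which also carried astroglial genes. The 4 states were not recounted without such cells. Zic4 was clearly expressed in 10 of 13 Mki67-high, Dcx-poor cells with a median of 148 CPM, and in 9 of 19, 32 of 62 and 5 of 13 cells of the following states, with medians of 4.80, 11.6 and 0.483 CPM. Zic1 had its highest median, 373 CPM, in Mki67-low cells with Dcx, and its lowest, 133 CPM, in Mki67-high, Dcx-poor cells. Barhl1 was clearly expressed in 9 of 19 Mki67-high cells with Dcx, in 17 of 62 Mki67-low cells with Dcx and in 3 of 13 cells of each Dcx-poor state.

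**Figure D3:**
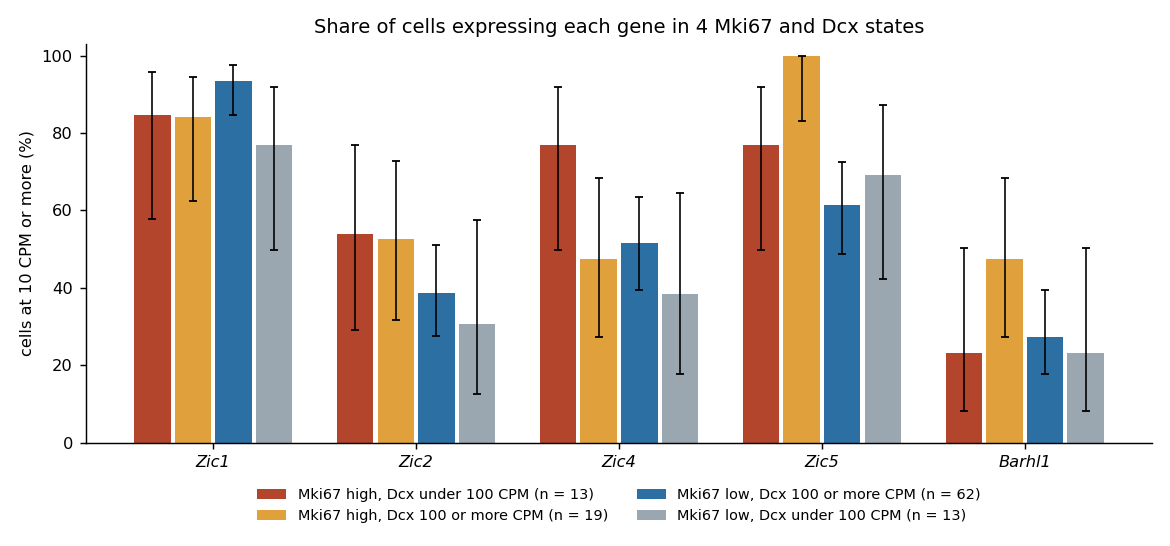
Share of cells with at least 10 CPM of each gene in the 4 states given by Mki67 and Dcx, in percent of the cells of the state, with Wilson 95% intervals. Zic5 reaches 100% in Mki67-high cells with Dcx at 100 CPM or more and 61.3% in Mki67-low cells with Dcx.

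Nearly every cell expressed at least 1 of the 5 genes, in varied combinations. The summed level of the 4 Zic genes had a median of 1332 CPM in Mki67-high and 1044 CPM in Mki67-low cells, and 981 and 1051 CPM in Dcx-high and Dcx-low cells. Over all cells it ran from 3.04 to 8296 CPM. At least 1 of the 5 members was clearly expressed in all but 3 cells: 10 cells had 1 member, 23 had 2, 42 had 3, 24 had 4 and 7 had all 5. Zic1 led the Zic genes in 10 of 32 Mki67-high and 44 of 75 Mki67-low cells, Zic5 in 11 and 15, Zic4 in 9 and 13 and Zic2 in 2 and 3.

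From cell to cell, the 5 genes varied almost without relation to each other. The Spearman correlation between members, on log2(CPM + 1) over the 109 cells, ran from −0.04 to 0.14. These correlations describe cells that share library groups, depth and chance detection, and are given without a test. The neighbours Zic1 and Zic4 had a correlation of −0.02, and Zic2 and Zic5 one of 0.09. Zic1 was clearly expressed in 53 of the 58 cells with Zic4 and in 44 without it. Among 8641 genes ranked by likeness to Zic1, Zic4 came at place 5347, and Zic2 came at place 1839 for Zic5.

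Of 5 lineage and Shh pathway genes examined (Atoh1, Pax6, Neurod1, Gli2 and Ptch1), the Spearman correlation with the members was highest between Zic1 and Neurod1 (0.29), Zic1 and Pax6 (0.27), Zic2 and Pax6 (0.24) and Barhl1 and Atoh1 (0.22), all of them weak in counts as sparse as these. Barhl1 was clearly expressed in 7 of the 11 cells with clear Atoh1 and in 27 of the 98 others. For Zic1, the same shares were 10 of 11 and 87 of 98. With Mki67 itself, the correlation was 0.17 for Zic4, 0.16 for Zic5 and −0.13 for Zic1, and with Dcx it was 0.13 for Zic1 and between −0.05 and 0.04 for the others. The correlation with the total count of the cell was 0.24 for Zic1 and at most 0.06 for the others, and that with the number of detected genes was 0.21 for Barhl1.

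**Figure D4:**
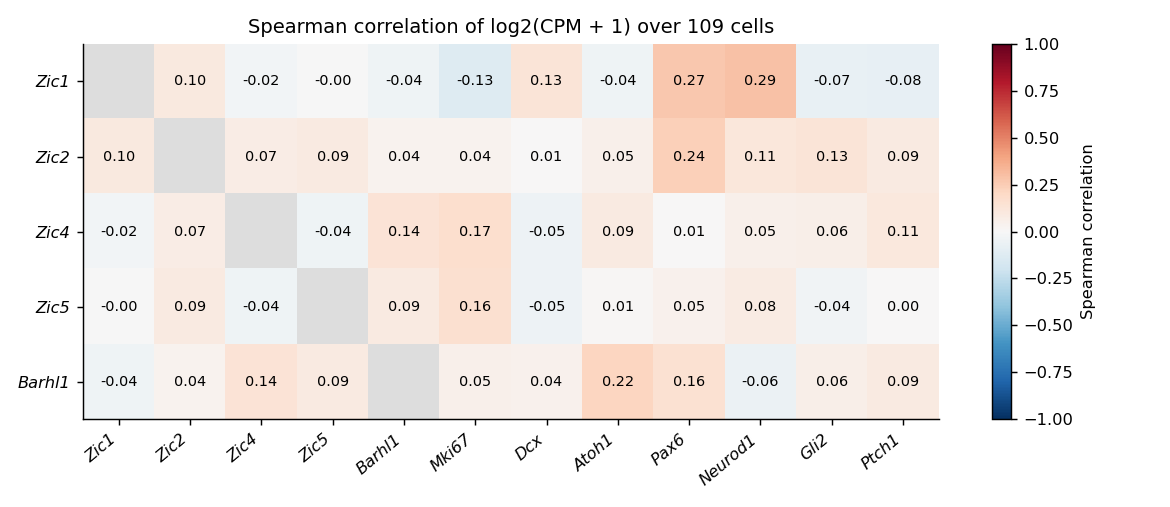
Spearman correlation of log2(CPM + 1) over 109 cells between each of the 5 genes (rows) and the members and markers of the lineage (columns), on a colour scale from −1 to 1, with grey for a gene with itself. No pair of members exceeds 0.14, and the highest value is 0.29, for Zic1 with Neurod1.

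The genes most like each member over the 109 cells also had modest Spearman correlations with it. For Zic1 they were the proteasome assembly gene Pomp (0.39), Yif1a (0.37) and Avl9 (0.37). For Zic2 they were Prmt10 (0.38), Atxn7l2 (0.36) and Ryk, a Wnt receptor (0.35). For Zic4 they were the polycystin gene Pkd1 (0.38), RP24-326F11.1 (0.37) and Naa10 (0.36), and for Zic5 the helicase gene Ddx52 (0.36), Ndufa10 (0.33) and Ftsj1 (0.33). For Barhl1 they were the planar cell polarity cadherin Celsr1 (0.41), Rasgef1c (0.39) and Fnta (0.37).

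Genes of the lineage and its pathways set the members in context. Barhl2, the paralog of Barhl1, reached 10 CPM in 27 of 109 cells. Its log2 fold change between Mki67 classes was 0.79 (SE 1.41), with an edgeR adjusted p of 0.926. Of 19 tested granule lineage transcription factors, 0 were called in edgeR between the Mki67 classes and 0 had an unadjusted p under 0.05, with a median log2 fold change of −0.45 beside −0.18 over all genes. Of these, Atoh1 stood at 79.5 CPM in Mki67-high and 5.77 CPM in Mki67-low sums (log2 fold change 3.85, edgeR adjusted p = 0.725), and En1 at 2.72 and 11.9 CPM (−2.57, edgeR adjusted p = 0.768).

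Of 13 tested Shh pathway genes, 0 were called, 2 had an unadjusted p under 0.05, and the median log2 fold change was 1.24, with 5 genes higher in all 6 library groups in mean log2(CPM + 1). Gas1, a Shh co-receptor, averaged 89.8 CPM in Mki67-high and 11.03 CPM in Mki67-low sums (edgeR adjusted p = 0.737), and Sufu, an inhibitor of Gli factors, 33.4 and 267 CPM (edgeR adjusted p = 0.633). Of 18 cell cycle genes, 0 were called at 0.01, 9 had an unadjusted p under 0.05, 13 were higher in all 6 library groups and the median log2 fold change was 3.58. Of 15 tested genes of granule neuron differentiation, 0 were called in edgeR, 10 had an unadjusted p under 0.05, and the median was −1.78. Mapt, which encodes tau, averaged 24.9 CPM in Mki67-high and 320 CPM in Mki67-low sums (log2 fold change −3.73, edgeR adjusted p = 0.417).

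Between the Dcx classes, 0 genes of these lists were called in edgeR. The median log2 fold change was 0.95 for the 15 tested genes of neuron differentiation, −1.83 for 17 cell cycle genes, −0.99 for 11 Shh pathway genes and 0.45 for 15 granule lineage transcription factors, beside −0.07 over all genes. Unadjusted p-values under 0.05 were found for 2, 0, 1 and 2 genes of these lists. Among the lineage factors, the bHLH gene Nhlh1 averaged 85.4 CPM in Dcx-high and 10.04 CPM in Dcx-low sums and was higher in 6 of 6 groups (edgeR adjusted p = 0.868). The share of all genes higher in all 6 groups in the sums was not computed. En1 had a log2 fold change of 3.70 and was higher in 4 of 6 groups. Neurod2 (−0.42) and Insm1 (−0.38) had fold changes of the other sign.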

How the data were processed

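Single cells of P7 cerebellar preparations were sequenced by the study. Per the submitters' processing notes, STAR 2.4.1d, HTSeq 0.6.1 and the build mm10 were used, and the authors counted aligned reads per gene. The deposited values are raw counts per gene and cell, without normalization. Neither the gene annotation nor the strand option used for counting was given in the sources used here. Libraries carry no molecular identifiers. Cells were assigned to library groups by their titles.

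Counts were scaled to CPM by column totals. Raw counts were summed per class and library group and tested with edgeR 4.0.16 (filterByExpr, TMM, quasi-likelihood, Benjamini-Hochberg over all genes, threshold 0.01, the study's threshold). Means of log2(CPM + 1) and shares of cells were compared over library groups with exact two-sided sign-flip tests, printed unadjusted. There were 20 for the means and shares with any count. Shares at 10 CPM or more were tested as an alternative for each of the 5 genes in both comparisons. Only the p of Zic5 between the Mki67 classes fell under 0.05 there, and the others were at 0.21875 or more. Means across all genes were compared with limma 3.58.1 (R 4.3.3). DESeq2 1.42.0, other normalization, filters, class limits, pseudocount 10, thinning and left-out cells or library groups were alternatives. The scripts were tested on simulated data.

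The members, lists and classes were chosen with earlier results of these data known. Named genes were the members, for each member the 3 most alike genes among those with a count in at least 20 cells, and examples from each list among the 2 highest and 2 lowest log2 fold changes. The checks of Zic5 at 10 CPM or more, and of means without some cells, were added after values were seen, as was the naming of Neurod1, Pax6, Gli2, Ptch1, Tacc3 and Cdc20.

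Same-numbered sums of the library groups correlated in their deviations at 0.05 to 0.137 (Mki67) and 0.05 to 0.111 (Dcx). These correlations were low but all positive, and they do not show that pairing is absent. Library groups were not treated as pairs in the main edgeR fit. The sign-flip tests did use differences within library groups, and the fits with a replicate block are given below.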

Additional observations from a re-analysis of the deposited data

Results flagged for a closer look

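Zic2 in the Mki67-high cells of library group 1 stood apart from the same class in the other 5 library groups. Its mean log2(CPM + 1) was 1.46 there, over 4 cells, against 3.13 to 4.05 in the others, a gap of 0.644 of the whole range. It was the 1 value flagged among 35 sets of 6 library groups, and chance flags about 1 in 20 such sets.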

How the results depend on the processing

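None of the 5 genes was called by edgeR, DESeq2 or limma under any alternative run, and DESeq2 gave no adjusted p for Barhl1 between the Mki67 classes. Of 149 refits of the members' log2 fold changes in sums, 132 kept their direction and 17 did not. Of 130 alternative differences in mean log2(CPM + 1), limma included, 97 kept direction and side of 0.05, 23 lost p under 0.05 and 10 turned. Of 90 for shares of cells, 73 kept both, 6 lost p, 1 passed it and 10 turned. For the means, limma p-values adjusted over all genes were set against unadjusted sign-flip p-values. Where no cause is named, the cause was not tested.

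The number of genes called between the Mki67 classes (2) was 6 at a threshold of 0.05, 376 in DESeq2, 6 with DESeq2 size factors, 26 in limma on mean log2(CPM + 1), 1 without cells of unusual depth, 5 with both class limits at 50 CPM, and 1 to 2 when a library group was left out (1 without group 1, 3, 5 or 6). Between the Dcx classes it was 434 in DESeq2.

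With the library group as a replicate block, edgeR called 0 genes between the Mki67 classes and limma 13, and the fold changes of Zic5 (−0.021) and Barhl1 (−1.35) turned, as did Barhl1 between the Dcx classes (2.97). That fit also moved the median over all genes, to −0.47 for Mki67 and 0.94 for Dcx. The block changed no call of a member.

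In the Mki67 sums, Zic1 turned in DESeq2 (0.11) and with its size factors (0.16), and Zic2 in DESeq2 (0.051), with its size factors (0.084) and without cells of unusual depth (0.054). In the Dcx sums, a split at the median of Dcx turned Barhl1 (0.54). The mean log2(CPM + 1) is another quantity: there, Zic2 differed by 0.33 between the Mki67 classes, and Zic5 by −0.30 and Barhl1 by 0.14 between the Dcx classes, each opposite in sign to the sums.

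Leaving out a library group moved the Mki67 fold changes of Zic1 between −0.23 and 0.24 (positive without group 2, 3 or 6), of Zic2 between −0.52 and 0.40 (positive without group 2), of Zic4 between 0.66 (without group 4) and 1.41 (without group 5), of Zic5 between −0.034 and 0.33 and of Barhl1 between −1.60 (without group 1) and 1.07, and the Dcx fold changes of Zic2 between 0.17 (without group 5) and 1.04 (without group 4), of Zic4 between −1.50 (without group 5) and −0.21 (without group 1), of Zic5 between 0.29 (without group 4) and 0.72 (without group 3) and of Barhl1 between −0.64 and 0.17. With 5 groups, p cannot fall below 0.0625, so the Zic5 mean (1.17 to 1.56), its share at 10 CPM or more (25.7 to 28.9 points) and the Zic1 mean with Dcx (1.08 to 1.47) lost p by construction. The Dcx differences in mean log2(CPM + 1) ran from −0.85 to 0.032 for Zic4, −0.65 to 0.029 for Zic5 and −0.46 to 0.75 for Barhl1, and shares with any count from −4 to 21.6 points for Barhl1 (Mki67) and −7.94 to 4.14 points for Zic2 (Dcx).

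The Zic5 mean lost p in limma by its adjusted p, with or without the replicate block (1.35). Its unadjusted limma p was 0.048 without and 0.020 with the block. The same mean lost p with pseudocount 10 (0.79), without cells of unusual depth (1.26) and without cells carrying glial genes (1.51). The share difference of Zic5 passed at the minimum of 10 CPM (27 points). The Zic1 mean with Dcx lost p in limma by its adjusted p, with or without the block (1.24). Its unadjusted limma p was 0.086 without and 0.046 with the block. That mean also lost p without cells of unusual depth (1.18), without glial cells (0.57), at the median split (0.48) and in Mki67-low cells (1.33). Between the Dcx classes, the share difference turned at 10 CPM for Zic1 (12.4 points), Zic2 (0.57) and Zic4 (−0.96), and after thinning for Zic1 (2.65), Zic4 (−3.20) and Zic5 (3.66). Dcx means turned for Zic4 at the median split (0.0021) and in Mki67-low cells (0.87), and for Barhl1 without cells of unusual depth (−0.013) and in Mki67-low cells (−0.088).

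Counts of 1 to 5 in a cell are near the limit of detection, and library groups hold only 2 to 8 cells in their smaller classes, which limits every comparison.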
